A study of Mus musculus with 26 samples.

Results

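The AP-1 and immediate early factors described here are 10 genes chosen by symbol: Fos, Fosb, Fosl1, Fosl2, Jun, Junb, Jund, Egr1, Atf3 and Ier3. All 10 were listed and passed the filter on low values in both deposited expression tables, among 12948 genes listed for fibroblasts and 11822 for macrophages. The measurements are 3' end messenger RNA sequencing of 26 libraries from cells of BALB/c mice. Fibroblasts came from the mammary fat pad of 2 females per replicate at 8 weeks of age, were expanded and depleted of CD45+ and EpCAM+ cells, and were sorted as PI- F4/80- CD11b-. Bone marrow of BALB/c females, also at 8 weeks, was cultured for 7 days with 20% L929-conditioned medium to give macrophages, which were sorted as PI- F4/80+ CD11b+. Cells were kept alone (mono-culture) or together (co-culture, 7 days) on collagen I, in DMEM with 10% serum or in medium taken from the murine breast cancer line 4T1 (4T1 medium). The labels used here do not give the harvest day of the mono-cultures.

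Fibroblasts form 4 groups, with 3 libraries of mono-culture in DMEM, 3 of co-culture in DMEM, 2 of mono-culture in 4T1 medium and 4 of co-culture in 4T1 medium. Macrophages form 4 groups, with 3 libraries titled day 0, 3 of co-culture in DMEM, 4 of mono-culture in 4T1 medium and 4 of co-culture in 4T1 medium. The columns taken as the day 0 macrophages are headed as macrophages alone in DMEM. If those heads are right and the titles wrong, each comparison with day 0 below is one with a DMEM mono-culture. Fibroblasts, macrophages and the 4T1 medium all come from cultured cells, so the groups describe cells in a dish, and fewer cells of a type in a sorted sample cannot be told apart from less RNA per cell.

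AP-1 is a dimeric transcription factor made of a Jun protein with a Fos, Jun or ATF protein, and it binds a short palindromic element in promoters and enhancers. Fos, Fosb, Jun, Junb and Egr1 are classic immediate early genes, whose transcription is switched on by growth factor and stress kinases without new protein synthesis and is normally short-lived. Fosl1 (Fra-1) and Fosl2 (Fra-2) lack the strong transactivation region of Fos and usually accumulate later and stay on longer, with Fosl1 known for its part in matrix degradation and invasion. In macrophages these factors take part in the response to adhesion, cytokines and microbial products.

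Promoter sequences are shown for 3 genes whose levels changed below: Fos and Atf3, both called lower in fibroblasts grown alone in 4T1 medium, and Fosl2, called higher in macrophages in both comparisons with day 0 and, in co-culture, in 4T1 medium. They are the 250 bases before the RefSeq start site, 5′ to 3′ on the gene's strand, in GRCm38.p6, with capitals marking matches to the motifs searched.
Fos, chr12:85473640-85473889, plus strand: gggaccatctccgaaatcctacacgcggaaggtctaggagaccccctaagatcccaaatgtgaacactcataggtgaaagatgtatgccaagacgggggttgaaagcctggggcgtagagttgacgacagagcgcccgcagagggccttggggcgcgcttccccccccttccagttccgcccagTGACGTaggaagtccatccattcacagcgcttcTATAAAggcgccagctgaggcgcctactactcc
Atf3, chr1:191183334-191183583, minus strand: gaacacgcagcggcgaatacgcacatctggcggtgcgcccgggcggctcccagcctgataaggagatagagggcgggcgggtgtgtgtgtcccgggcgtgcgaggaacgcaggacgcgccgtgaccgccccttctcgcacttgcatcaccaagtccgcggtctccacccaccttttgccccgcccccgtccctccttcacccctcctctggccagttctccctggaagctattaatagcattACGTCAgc
Fosl2, chr5:32136222-32136471, plus strand: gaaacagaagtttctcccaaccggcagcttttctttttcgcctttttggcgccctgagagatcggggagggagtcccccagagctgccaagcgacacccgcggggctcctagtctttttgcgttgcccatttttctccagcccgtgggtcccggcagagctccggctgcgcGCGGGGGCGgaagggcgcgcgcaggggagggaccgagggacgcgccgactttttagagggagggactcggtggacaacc
The motifs, read on both strands, were the AP-1 element TGANTCA, the cyclic AMP response element TGACGTCA and its core TGACGT, which lies within it, the EGR element GCGNGGGCG, the TATA box TATAAA and the CArG box bound by serum response factor. The core element was found in the windows of Fos, 66 bases before the start (offset -66), and of Atf3, at offset -8, and in 6.47% of 32851 windows genome-wide. The EGR element was found in those of Fosl2, at offset -79, and Fosb, at offset -50, and in 4.70% of windows. Fos also carried a TATA box at offset -33, as did 12.4% of windows. Windows were at hand for 8 of the 10 genes, without Fosl1 and Egr1. None of the 8 held the full AP-1 element (6.75% of windows), the full cyclic AMP element (1.55%) or the CArG box (1.47%). Bases farther from the start site were not searched, so sites there would be missed. These matches describe letters in a window and are not evidence of binding.

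Reads summed over the listed genes were 1945980 to 7632366 per library for fibroblasts and 1434695 to 4140985 for macrophages. Those of fibroblasts were recovered from the normalized values, as described below. Values below are the authors' normalized read counts per gene, each given in replicate order, and the 2 tables were normalized separately. Changes are log2 differences between groups ± SE. A gene is called changed where its p, adjusted by Benjamini-Hochberg over all genes tested, is under 0.05, with limma for fibroblasts and the edgeR quasi-likelihood test for macrophages. Fibroblast changes are on the scale of log2(value + 1), which understates the changes of low genes. All 16 macrophage markers were detected in every macrophage group, and all 16 fibroblast markers in every fibroblast group. Detected means not at 0 in every library of the group. Nearly all markers were also detected in the other cell type, so presence alone does not set the types apart. The share of the other cell type in a library was read as the median level of 16 markers of that type, in percent of their level in that type as sorted from co-cultures of the same kind. This share was 1.99% to 20.1% in macrophages from co-cultures and at most 0.201% in day 0 and mono-culture macrophages, where Lum, a fibroblast proteoglycan gene, was at 0 in every library. It was at most 1.85% in fibroblasts.

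**Figure D1:**
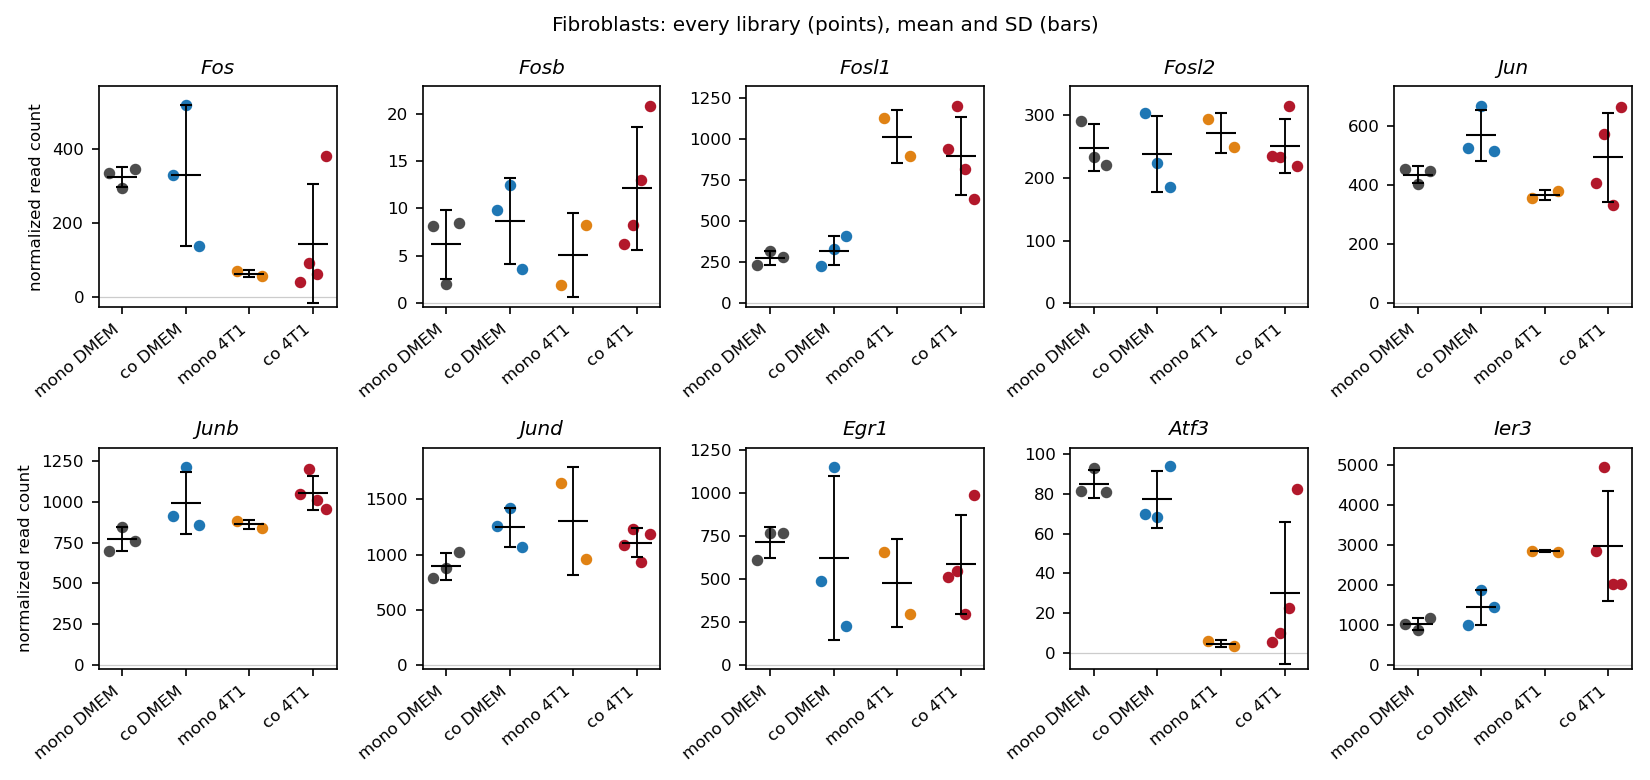
Normalized read count of each gene (y axis, own scale per gene) in the 12 fibroblast libraries by culture and medium (x axis; 4T1 is 4T1 medium). Points are libraries, bars are the mean and SD. Fosl1 lies between 632 and 1201 in 4T1 medium and between 227 and 407 in DMEM, and Atf3 and Fos are low in 5 of the 6 libraries in 4T1 medium.

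In fibroblasts grown alone, 4T1 medium raised Fosl1 and Ier3 and lowered Atf3 and Fos, so 4 of the 10 genes were called changed, against 13.3% of all genes tested (6.36% higher, 6.93% lower). Within the Fos family the members moved apart: Fosl1 rose 3.67-fold, Fos fell, and Fosl2 and Fosb did not pass the test. The 3 Jun genes and Egr1 did not pass either. The ranges of the 2 groups were separate for 5 of the 10 genes, as they were for 46.6% of all genes, with 2 libraries set against 3.

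Fosl1 read 230, 317 and 279 in the DMEM libraries and 1127 and 898 in the 4T1 medium libraries. Both libraries in 4T1 medium lay far above all 3 in DMEM, with group means of 275 ± 43.4 (SD, n = 3) and 1012 ± 162 (SD, n = 2). The change was 1.88 ± 0.27 (adjusted p = 0.000816, limma), and it was called under all 13 alternative settings. Fos, the founding member of the family and partner of Jun, read 335, 294 and 346 in DMEM and 69.1 and 55.3 in 4T1 medium. Those groups did not overlap either, and the change was -2.37 ± 0.71 (adjusted p = 0.0409, limma). The Fos call was kept under 6 of 13 alternatives, with adjusted p from 6.72e-05 to 0.142, and was lost with the edgeR and DESeq2 tests on reads and without any single library of the 2 groups.

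Atf3, a stress-induced CREB family factor that pairs with Jun proteins and often represses its targets, read 81.3, 93.4 and 80.8 in DMEM and 5.92 and 3.30 in 4T1 medium. It fell by 3.98 on the log2 scale (SE 0.74, adjusted p = 0.00390, limma), under all 13 alternatives as well. Ier3, an early response gene that modulates survival and ERK signalling rather than binding DNA, read 1018, 879 and 1182 in DMEM and 2861 and 2831 in 4T1 medium. All libraries in 4T1 medium were above those in DMEM, and the change was 1.48 ± 0.33 (adjusted p = 0.0108, limma). Without replicate 1 of the mono-culture in 4T1 medium its adjusted p was 0.0769.

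Fosl2 changed by 0.13 ± 0.22 and Fosb, at 1.97 to 8.47 in these 5 libraries, by -0.29 ± 0.69. Jun, the archetypal AP-1 partner, read 455, 404 and 447 in DMEM and 355 and 379 in 4T1 medium, where the groups separate but the change of -0.24 ± 0.24 did not pass (adjusted p = 0.537, limma). Junb, which often opposes Jun, changed by 0.16 ± 0.16. Jund, the most evenly expressed of the 3 in many tissues, read 1648 and 957 in 4T1 medium and 785 to 1028 in DMEM, and its change of 0.49 ± 0.22 was called only without replicate 2 of the 4T1 medium group (adjusted p = 0.0217 against 0.148 with it, limma). Egr1, a zinc finger immediate early factor, changed by -0.69 ± 0.56.

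In co-culture with macrophages, Fosl1 again rose in 4T1 medium and was the 1 gene of 10 called, against 5.85% of all genes tested (2.33% higher, 3.52% lower). It read 227, 328 and 407 in DMEM and 937, 1201, 815 and 632 in 4T1 medium, so that every library in 4T1 medium lay above every library in DMEM. The change was 1.48 ± 0.22 (adjusted p = 0.00189, limma), or 2.80-fold, called under all 15 alternatives. Ier3 was the other gene with separate groups, as 16.2% of all genes were, at 1000, 1874 and 1439 against 2860, 4943, 2034 and 2021. Its change of 0.99 ± 0.28 missed the threshold (adjusted p = 0.0535, limma).

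Atf3 and Fos did not pass in co-culture, and in both replicate 4 in 4T1 medium stood with the DMEM libraries. Atf3 read 69.9, 68.6 and 94.1 in DMEM and 5.22, 9.96, 22.6 and 82.5 in 4T1 medium, a change of -2.02 ± 0.62 (adjusted p = 0.0758, limma). Fos read 330, 520 and 138 in DMEM and 38.6, 92.2, 61.7 and 383 in 4T1 medium, a change of -1.57 ± 0.59 (adjusted p = 0.153, limma). Without replicate 4 the change was -2.73 for Atf3 (adjusted p = 0.00148, limma), -2.23 for Fos (adjusted p = 0.00445, limma) and 1.14 for Ier3 (adjusted p = 0.0298, limma), and 4 of the 10 genes were called. With the replicate number as a block the same 4 were called, with adjusted p of 0.00221, 0.00723 and 0.0394 in that order (limma), because replicate 4 exists in this group only. Fosl2, Fosb, Jun, Junb, Jund and Egr1 changed by -0.25 to 0.45 and did not pass.

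A set of 10 glial marker genes, such as Sox10, a factor of Schwann cells, was looked at after the values of Atf3 were seen. Of the 9 listed, 8 fell in 4T1 medium in each culture (limma), and the cadherin gene Cdh19 was at 0 in both mono-culture libraries in 4T1 medium. Their summed level, in reads scaled to an equal library total (CPM), was 400.3 to 541 in mono-culture in DMEM, 354 to 770.5 in co-culture in DMEM and 10.9 and 8.05 in mono-culture in 4T1 medium. In co-culture in 4T1 medium it was 8.08, 18.0, 83.3 and 284 for replicates 1 to 4. Atf3 stood in the same order over these 4 libraries, at 5.22, 9.96, 22.6 and 82.5. The part of glial RNA in the results for Atf3, Fos, Fosl1 and Ier3 was not tested.

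**Figure D2:**
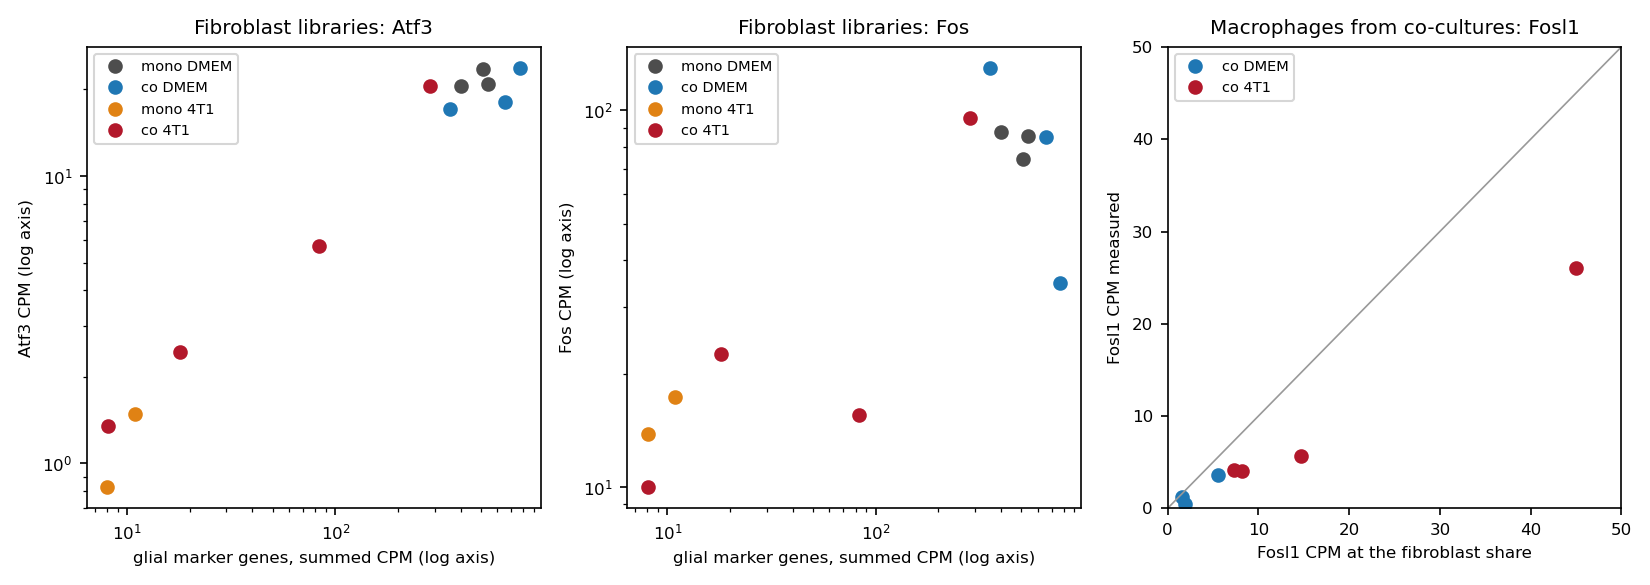
Left and middle: CPM of Atf3 and Fos (y axis, log) against the summed CPM of 9 glial marker genes (x axis, log) in the 12 fibroblast libraries. Right: measured Fosl1 CPM (y axis) in the 7 macrophage libraries from co-cultures against the Fosl1 CPM that the fibroblast share would bring (x axis), with the line of equality; all 7 points lie below it.

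Adding macrophages called none of the 10 genes in fibroblasts in either medium, by limma, edgeR or DESeq2. In DMEM, where 1% of all genes were called, 2 of the 10 had an unadjusted p under 0.05, Jund at 0.47 ± 0.19 and Junb at 0.36 ± 0.15. In 4T1 medium, where 0.0242% of genes were called, it was Atf3 alone at 1.81 ± 0.70. Atf3 read 5.22, 9.96, 22.6 and 82.5 in co-culture there and 5.92 and 3.30 in mono-culture, so replicate 4 of the co-culture enlarges the change. Fosl1 differed by 0.19 ± 0.24 between co-culture and mono-culture in DMEM and by -0.20 ± 0.25 in 4T1 medium. The test of whether the response to co-culture differed between media (interaction) called none of the 10 by any of the 3 tools, against 0.145% of all genes. Jund alone had an unadjusted p under 0.05 there, at -0.66 ± 0.28. These counts were 0 without any single library as well.

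Among the lists of fibroblast genes of the same pathway, the textbook AP-1 targets had the most calls for 4T1 medium. The lists were chosen with earlier results of these data known, so their counts are a description and not a test. In mono-culture 8 of 14 tested were higher in 4T1 medium and none was lower (limma), against 6.36% of all genes called higher. Their median change was 1.47 against -0.01 over all genes. In co-culture 9 of 14 were higher and none lower, against 2.33% of all genes called higher, with a median of 1.60. The stromelysin gene Mmp3 rose by 2.31 ± 0.45 in mono-culture and 3.70 ± 0.38 in co-culture, Mmp10 by 3.49 ± 0.59 and 3.99 ± 0.49, and the inhibitor gene Timp1 by 1.87 ± 0.23 and 1.52 ± 0.19. Mmp9, a gelatinase gene, rose from 14.5 ± 2.38 (SD, n = 3) to 1512 ± 295 (SD, n = 2) in mono-culture, and was the 1 target with an interaction (-3.77 ± 0.37, adjusted p = 0.00115, limma). Adding macrophages in DMEM raised Mmp9 by 2.99 ± 0.26 and lowered the collagenase gene Mmp13 by 3.82 ± 0.82 on the log2 scale, and in 4T1 medium it called none of the 14. Macrophage markers also moved between these groups. With macrophages added in DMEM, 13 of the 16 were called higher in fibroblasts and none lower, and their summed level was 44.0 to 55.0 CPM in mono-culture against 724 to 1602 CPM in co-culture. Ptprc (CD45) was at 0 in all 3 DMEM mono-cultures, and none of the 16 was at 0 in the DMEM co-cultures. In 4T1 medium the sum was 170 to 177 CPM in mono-culture and 57.2 to 324 CPM in co-culture, and 14 of the 16 were called lower in co-culture in 4T1 medium than in DMEM, a comparison in which Mmp9 rose by 2.84 ± 0.24. Csf1r, the CSF-1 receptor gene, had an interaction of the same sign as that of Mmp9 (-3.81 ± 0.45, adjusted p = 0.00462, limma), the 1 marker of the 16 called there. Macrophages sorted from DMEM co-cultures had 10.7 to 16.4 normalized reads of Mmp9, in the table normalized separately, against 110 to 130 in the fibroblasts. The part of macrophage RNA in the Mmp9 results was not tested.

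The other immediate early genes did not move as a block in fibroblasts: 2 of 23 tested rose in 4T1 medium in each culture and none fell. These were the cyclooxygenase gene Ptgs2, at 3.34 ± 0.62 and 2.31 ± 0.52, and the nuclear receptor gene Nr4a2, at 1.72 ± 0.33 and 1.19 ± 0.28. Of 7 other AP-1 partner genes none was called in mono-culture and Maff, a small Maf factor, rose in co-culture (0.84 ± 0.23). Of 16 upstream kinases and factors, the MEK1 gene Map2k1 and the ASK1 gene Map3k5 rose in both cultures (0.69 ± 0.15 and 1.95 ± 0.43 alone, 0.65 ± 0.13 and 1.57 ± 0.36 together), with Elk3 in mono-culture only among calls (0.61 ± 0.16). Of 12 feedback inhibitors, Dusp10 and Spry2 rose (1.95 ± 0.39 and 2.04 ± 0.45) and Spry1 fell (-1.45 ± 0.34) in mono-culture, and Nab2, a corepressor of Egr factors, rose in co-culture (0.63 ± 0.16). None of these 4 lists had a call for co-culture in either medium.

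Heat shock genes were examined because tissue handling and sorting can raise them together with immediate early genes. Of 10, none was called by 4T1 medium in mono-culture. Hsph1 rose (0.69 ± 0.15) and Hspa1b fell (-0.93 ± 0.22) in co-culture, and Hspa1a and Hspa1b were higher in co-culture in DMEM (both 1.26). Their summed level was 877 to 1324 CPM over the 12 fibroblast libraries. The part of handling in the results was not tested.

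**Figure D3:**
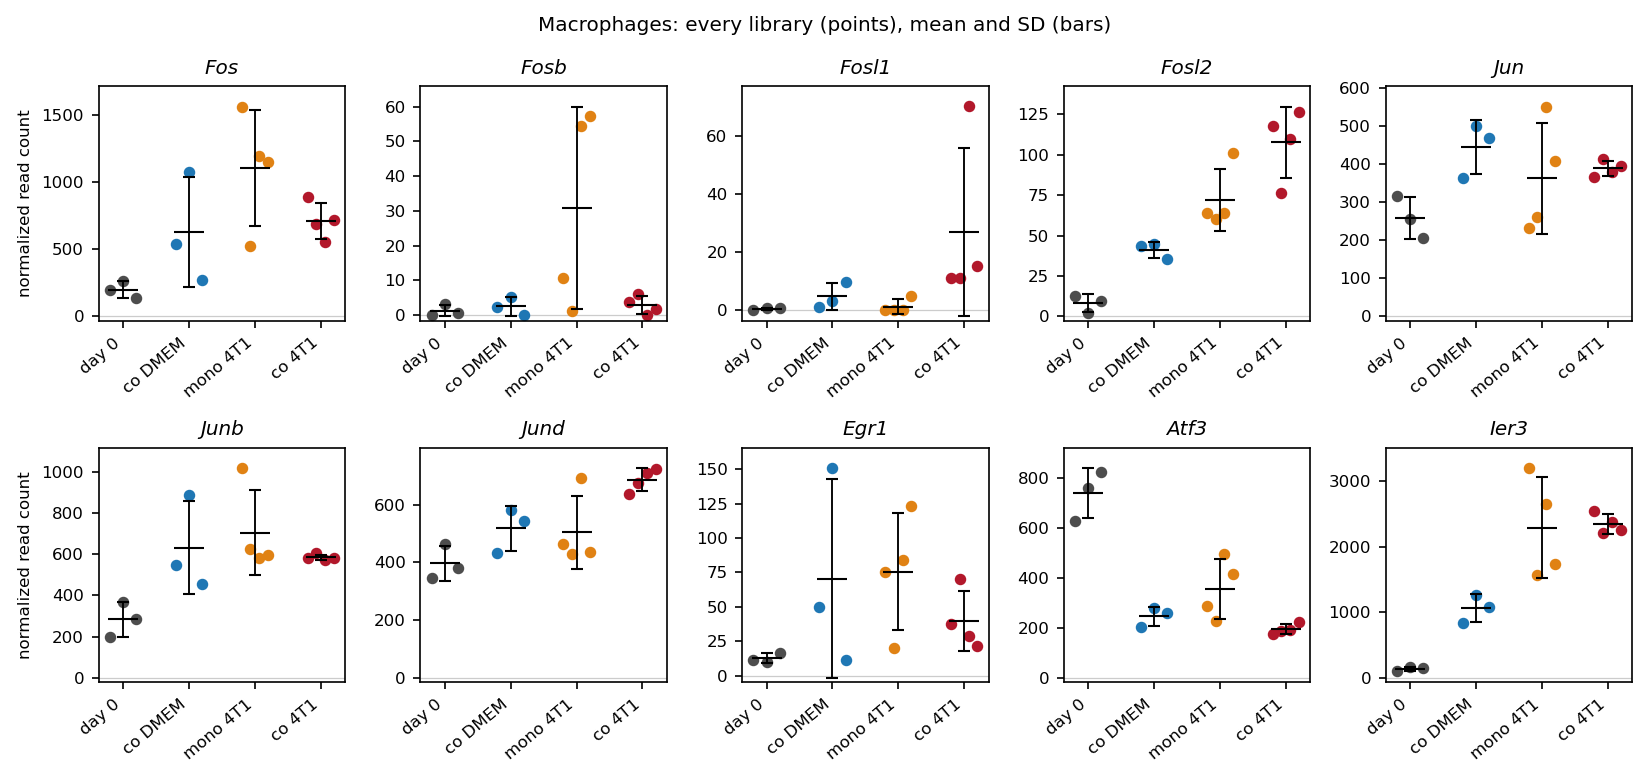
Normalized read count of each gene (y axis, own scale per gene) in the 14 macrophage libraries by group (x axis; 4T1 is 4T1 medium). Points are libraries, bars are the mean and SD. Ier3 lies between 109 and 158 at day 0 and at 837 or above elsewhere, and Atf3 is highest at day 0.

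In macrophages most of the 10 genes stood apart from day 0. In co-culture in DMEM 6 rose and Atf3 fell, 7 called against 15.2% of all genes tested (8.47% higher, 6.71% lower). Among the 6 is Egr1, whose call there has a limit from fibroblast RNA, given below. Alone in 4T1 medium again 6 rose and Atf3 fell, against 21.9% (11.1% higher, 10.9% lower). The median change of the 10 was 1.42 and 1.93, beside -0.002 and 0.04 over all genes. Both comparisons use the same 3 day 0 libraries, so they are not independent. If the day 0 titles are right, both also differ in time in culture, which cannot be told apart from medium or co-culture. Groups did not overlap for 7 and 6 of the 10 genes, as for 31.8% and 29.2% of all genes.

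Ier3 changed most clearly. It read 109, 158 and 143 at day 0, 837, 1261 and 1079 in co-culture in DMEM, and 3188, 1572, 2650 and 1733 in mono-culture in 4T1 medium, 3 ranges that do not overlap. The changes against day 0 were 2.97 ± 0.26 (adjusted p = 1.55e-06, edgeR) and 4.10 ± 0.26 (adjusted p = 3.72e-08, edgeR). Fosl2 read 12.8, 2.32 and 9.65 at day 0, 43.8, 44.6 and 35.4 in co-culture in DMEM, and 64.2, 60.0, 63.8 and 101 in mono-culture in 4T1 medium. These ranges were separate too, with changes of 2.29 ± 0.38 (adjusted p = 0.000547, edgeR) and 3.12 ± 0.35 (adjusted p = 5.65e-06, edgeR). Both genes were called under every alternative of both comparisons.

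Fos read 199, 262 and 136 at day 0, 543, 1078 and 268 in co-culture in DMEM, and 1563, 522, 1201 and 1151 in mono-culture in 4T1 medium. Both cultures lay above day 0, narrowly so for replicate 3 of the co-culture. The changes were 1.68 ± 0.43 (adjusted p = 0.0129, edgeR) and 2.52 ± 0.42 (adjusted p = 0.000324, edgeR). In co-culture in DMEM the Fos call was lost without replicate 2 of that group or without replicate 3 of day 0, with adjusted p up to 0.106. Fosb read 0, 3.10 and 0.689 at day 0 and 10.7, 1.18, 54.3 and 57.2 in mono-culture in 4T1 medium, where the ranges overlap through replicate 2. Its change of 4.55 ± 1.12 was called (adjusted p = 0.00693, edgeR) on 5 reads over the day 0 group, so the size of the fold depends on few reads.

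Junb rose to 549, 888 and 457 in co-culture in DMEM and 1015, 623, 581 and 597 in mono-culture in 4T1 medium, from 200, 366 and 284 at day 0. No library of either culture fell within the day 0 range, and the changes were 1.17 ± 0.26 (adjusted p = 0.00642, edgeR) and 1.35 ± 0.25 (adjusted p = 0.000897, edgeR). Jun read 363 to 499 in co-culture in DMEM and 205 to 315 at day 0, a change of 0.79 ± 0.26 (adjusted p = 0.0459, edgeR) that was called under 6 of 11 alternatives. In mono-culture in 4T1 medium Jun spread from 233 to 550 and was not called (0.52 ± 0.24). Jund did not pass in either comparison, at 0.40 ± 0.19 and 0.38 ± 0.17.

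Egr1 read 11.3, 10.1 and 16.5 at day 0 and 74.9, 20.0, 83.7 and 123 in mono-culture in 4T1 medium, a change of 2.59 ± 0.72 (adjusted p = 0.0163, edgeR) called under 9 of 12 alternatives. In co-culture in DMEM it read 49.7, 151 and 11.1, so that replicate 3 lay within the day 0 range. The change of 2.44 ± 0.76 (adjusted p = 0.0392, edgeR) was called under 5 of 11 alternatives. At the fibroblast share of each library, fibroblast RNA would bring 5.45% to 258% of the measured Egr1 in co-culture in DMEM. The part of fibroblast RNA in this call was not tested. Atf3 moved the other way from all the other called genes, at 628, 759 and 824 at day 0, 204, 278 and 259 in co-culture in DMEM, and 285, 227, 493 and 416 in mono-culture in 4T1 medium. It fell by 1.56 (SE 0.23, adjusted p = 0.000229, edgeR) and by 1.02 (SE 0.21, adjusted p = 0.00196, edgeR) on the log2 scale. Without replicate 2 of the co-culture in DMEM, or without replicate 3 of day 0, 4 of the 10 genes were called in co-culture in DMEM.

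Between the 2 co-cultures, 4T1 medium raised Fosl2 and Ier3 in macrophages, 2 of the 10 genes against 10.3% of all genes (5.68% higher, 4.63% lower). Fosl2 read 118, 76.4, 110 and 126 in 4T1 medium, all above the 35.4 to 44.6 in DMEM, a change of 1.39 ± 0.29 (adjusted p = 0.00496, edgeR). Ier3 read 2536, 2203, 2370 and 2247, all above the 837 to 1261 in DMEM, a change of 1.15 ± 0.23 (adjusted p = 0.00336, edgeR). Both calls held under all 12 alternatives, and 4 of the 10 genes had separate groups, as 22.6% of all genes did. The replicate numbers may pair these samples, which the main test does not use. With the number as a block Fosl1 was called too (2.37, adjusted p = 0.0391, edgeR). At the fibroblast share of each library, fibroblast RNA would bring 4.65% to 31.5% of the measured Fosl2 and 1.52% to 16.9% of the measured Ier3 in these 7 libraries. For Fosl1 it would bring 134% to 452% in DMEM and 173% to 261% in 4T1 medium, more than was measured.

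Within 4T1 medium, macrophages with fibroblasts differed from macrophages alone in 3 of the 10 genes, against 26% of all genes (14% higher, 11.9% lower): Fosl1 was higher, and Fosb and Atf3 were lower. The Fosl1 call has a limit from fibroblast RNA, given below. The groups did not overlap for 2 of the 10 genes, as for 26.2% of all genes. Atf3 read 176, 187, 190 and 223 in co-culture against 285, 227, 493 and 416 alone, separate by a narrow margin, and fell by 0.88 (SE 0.20, adjusted p = 0.00423, edgeR) under all 13 alternatives. Fosb read 3.75, 6.01, 0 and 1.78 in co-culture against 10.7, 1.18, 54.3 and 57.2, overlapping through replicate 2. Its change was -3.27 ± 0.94 (adjusted p = 0.0167, edgeR) on 11 reads over the co-culture group, and adjusted p was 0.0530 without replicate 4 of that group. Jund, at 637 to 724 in co-culture and 428 to 692 alone, changed by 0.43 ± 0.16 and was called under 4 of 13 alternatives (adjusted p = 0.0603, edgeR). Ier3 did not differ detectably, at 0.02 ± 0.20.

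Fosl1 in macrophages was near 0 outside co-cultures. It read 0, 0, 0 and 4.98 in mono-culture in 4T1 medium, 0, 0.774 and 0.689 at day 0, 1.18, 3.18 and 9.82 in co-culture in DMEM, and 11.2, 11.2, 70.1 and 15.1 in co-culture in 4T1 medium. The change within 4T1 medium was 4.47 ± 0.98 (adjusted p = 0.00280, edgeR), resting on 4 reads over the mono-culture group. At each library's fibroblast share, fibroblast RNA would bring 173% to 261% of the measured Fosl1 in co-culture in 4T1 medium and 134% to 452% in DMEM, that is, more than was measured in each of the 7 libraries. Such a part is not possible, so these figures are too high as they stand. They do not show how much of the measured Fosl1 came from fibroblasts. Over these 7 libraries, Fosl1 and the summed fibroblast markers had a Pearson r of 0.949 on log2 CPM. The part of fibroblast RNA in the Fosl1 call was not tested. The figures for other genes rest on the same shares, which are rough. Replicate 4 in 4T1 medium, with a share of 6.54%, had the lowest summed fibroblast markers of its group (3911 CPM). Replicate 3 in 4T1 medium had both the highest Fosl1 and the highest fibroblast share, 20.1% against 3.24%, 3.67% and 6.54% in the others. In contrast, the fibroblast share would bring at most 2.14% of the measured Atf3 and 5.71% of the measured Fos. For Egr1 it would bring 5.45% to 275%. The levels of Egr1 and Fosl1 of macrophages in co-culture are therefore not resolved.

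**Figure D4:**
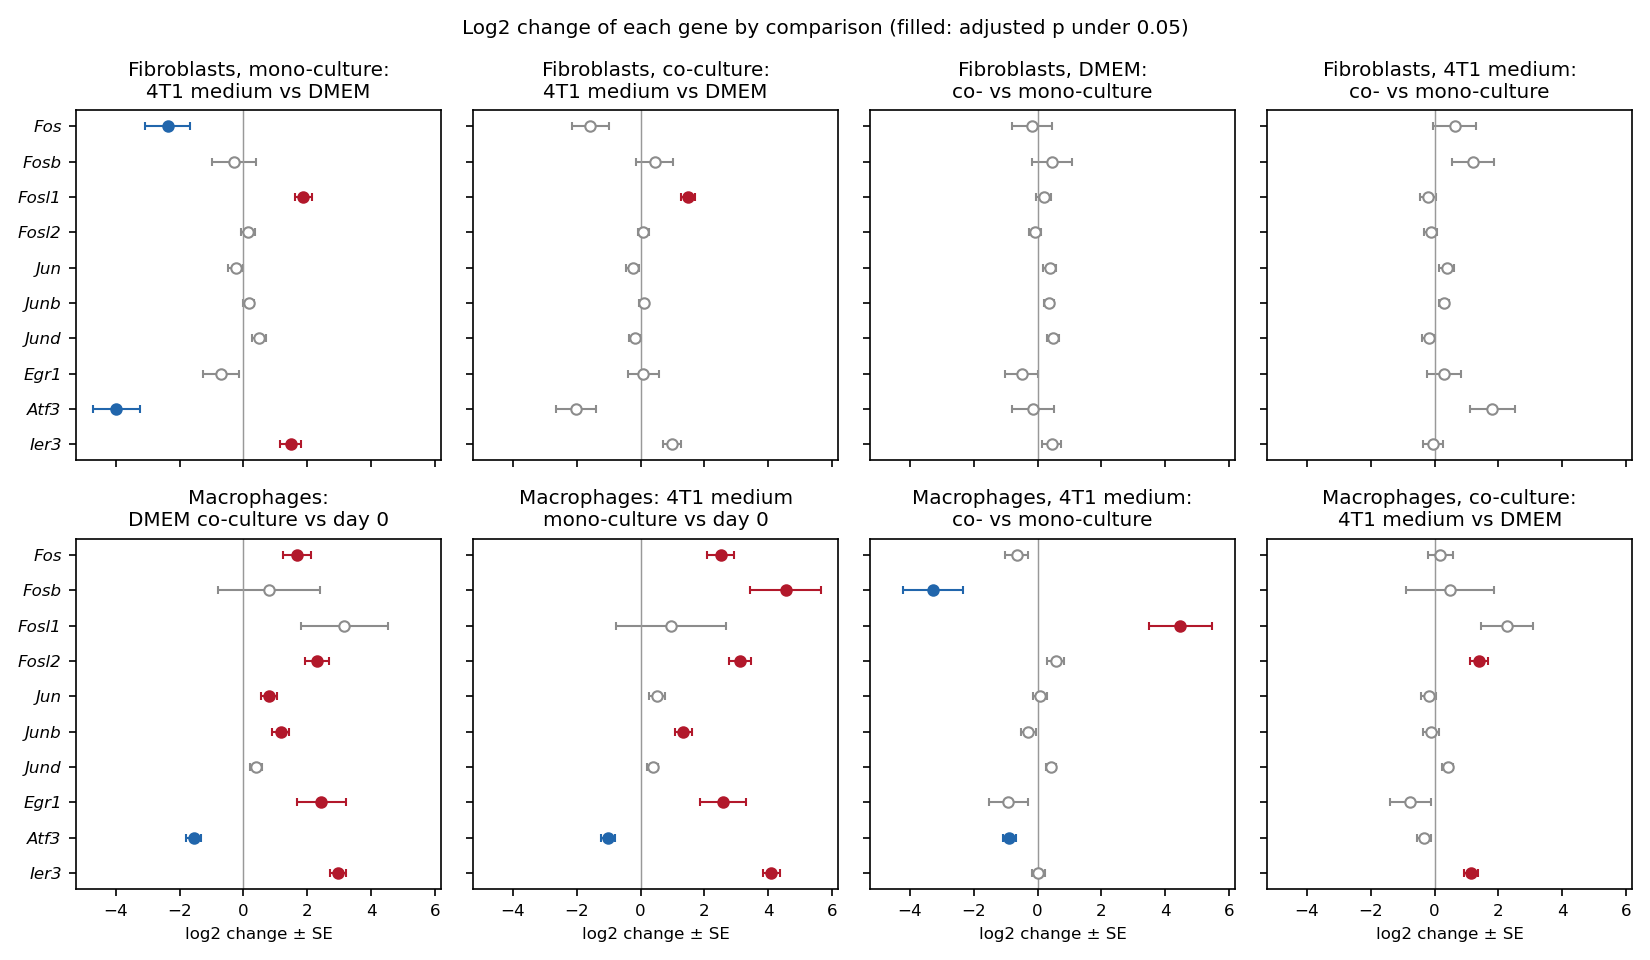
Log2 change ± SE (x axis) of each gene (y axis) in the 4 fibroblast comparisons of culture or medium (top) and the 4 macrophage comparisons (bottom). Filled red and blue points are higher and lower at adjusted p under 0.05, open grey points did not pass. Calls are fewest for co-culture in fibroblasts, none of 10, and most against day 0 in macrophages, 7 of 10 in each comparison.

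The other immediate early genes moved in both directions in macrophages. Of 21 tested, 8 were higher and 3 lower in co-culture in DMEM against day 0, and 8 were higher and 5 lower in mono-culture in 4T1 medium (edgeR). Trib1, a pseudokinase gene, rose by 2.18 ± 0.19 and 2.42 ± 0.18, and Ier2 by 1.63 ± 0.35 and 1.98 ± 0.34. Egr2, a relative of Egr1 linked to macrophage differentiation, fell by 3.15 ± 0.35 and 1.68 ± 0.28 on the log2 scale. In co-culture 4T1 medium raised 2 of 21, Klf4 (1.68 ± 0.20) and Ptgs2 (4.47 ± 0.81), and lowered none. Within 4T1 medium 6 were higher and 5 lower in co-culture, with Klf4 higher (1.05 ± 0.18) and Btg2, an antiproliferative gene, lower (-1.55 ± 0.27).

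Of 9 other AP-1 partner genes in macrophages, 3 were higher and 1 lower in co-culture in DMEM against day 0, and 4 were higher in mono-culture in 4T1 medium. Batf, which pairs with Jun proteins in immune cells, rose in both (0.76 ± 0.16 and 1.51 ± 0.15), as did Jdp2, a Jun dimerization partner (1.52 ± 0.27 and 0.95 ± 0.26). None was called by 4T1 medium in co-culture, and within 4T1 medium 2 were higher and 2 lower in co-culture. Of 15 upstream kinases and factors, Map2k1 was higher in co-culture in DMEM (0.70 ± 0.14) as the 1 call, 2 were higher and 1 lower in mono-culture in 4T1 medium, 2 were higher for 4T1 medium in co-culture and 1 for co-culture in 4T1 medium. Of 9 feedback inhibitors, Dusp6, an ERK phosphatase gene, rose in both comparisons with day 0 (1.65 ± 0.40 and 1.41 ± 0.38). The totals in the same order as for the kinases were 2 higher, 3 higher, none, and 2 higher with 2 lower.

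Textbook AP-1 targets in macrophages were called higher mostly in comparisons within or between co-cultures. Of 12 tested, 10 were higher within 4T1 medium in co-culture and 9 were higher by 4T1 medium between co-cultures, with none lower (edgeR). Of all genes, 14% and 5.68% were called higher in these comparisons, and the list was chosen with earlier results of these data known. In co-culture in DMEM against day 0, 3 were higher and 1 lower, and in mono-culture in 4T1 medium 1 was higher, the urokinase receptor gene Plaur (1.14 ± 0.19), and 1 lower, Ccnd1 (-2.40 ± 0.42). The co-culture counts stand beside fibroblast shares of 1.99% to 20.1%, and 15 of 15 tested fibroblast markers were higher within 4T1 medium in co-culture. Plaur did not pass there but rose by 2.13 ± 0.21 between the co-cultures. Of 10 heat shock genes, 4 were higher within 4T1 medium in co-culture, 1 was higher by 4T1 medium between co-cultures and 1 in co-culture in DMEM against day 0, and 1 was lower in mono-culture in 4T1 medium against day 0. Their summed level was 336 to 540 CPM over the 14 libraries.

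Set side by side in CPM, without a test because the tables were normalized separately, Fosl1 averaged 70.0 to 254 over the fibroblast groups and 0.184 to 9.98 over the macrophage groups. Atf3 averaged 1.16 to 21.7 CPM in fibroblasts and 71.6 to 280 in macrophages. Fos averaged 15.6 to 83.2 and 75.2 to 364, and Egr1 119 to 181 and 4.81 to 26.4. Ier3 averaged 261 to 740 CPM in fibroblasts and 51.7 to 864 in macrophages. In fibroblasts the order of the Fosl1 means was mono-culture in 4T1 medium, co-culture in 4T1 medium, co-culture in DMEM, then mono-culture in DMEM, and only the step between media separated neighbouring groups. In macrophages the order for Ier3 was co-culture and mono-culture in 4T1 medium, whose ranges overlap, then co-culture in DMEM, then day 0, each of the last 2 separate from the group above it.

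Genes with the most similar pattern were sought by Pearson's r across libraries, which fall into groups by medium and culture, among 9324 genes in fibroblasts (12 libraries) and 7906 in macrophages (14 libraries). In fibroblasts Fosl1 was most like Thbd (0.989) and Abcc1 (0.988), Ier3 like Vegfa (0.969) and Ell2 (0.964), Fos like Tmsb4x (0.930) and Sdsl (0.915), and Atf3 like the glial factor Sox10 (0.982) and Zfp536 (0.982). In macrophages Ier3 was most like Socs3 (0.986), Fosl2 like Hif1a (0.972), Junb like Ier2 (0.936), Fosb like the phosphatase gene Dusp1 (0.908) and Atf3 like Eya3 (0.956). Among the 10 genes themselves, deviations from the group means of Fos and Egr1 had an r of 0.753 over fibroblast libraries and 0.761 over macrophage libraries. Fos and Jun stood at 0.786 in fibroblasts and 0.210 in macrophages.

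In mm10 with GENCODE vM21, 5 of the 10 genes overlap another annotated gene, and the strand setting of the counting is not stated in these sources. Fosl1 (chromosome 19, 5447547 to 5455946, plus strand) overlaps Ccdc85b, which is listed for fibroblasts. Junb (chromosome 8, 84974484 to 84978718, minus strand) overlaps Prdx2, which is listed for both cell types. Jun, Jund and Atf3 overlap noncoding genes that neither table lists. Without strand, reads from the overlapping stretches cannot be told apart.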

How the data were processed

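For macrophages the authors deposited raw read counts of each gene, and for either cell type a normalized signal. Per the submitters' processing notes, the tools were bcl2fastq, STAR 2.4.2a and HTSeq, with mm10 as the build. Every deposited normalized signal, multiplied by its library's size factor, was a whole number of reads within 0.001 reads (100% of values), and the macrophage factors equal those of the median-of-ratios method. For fibroblasts, without raw counts, the factor was inferred by taking the smallest nonzero signal of a library as 1 read. Every listed gene had at least 6 reads in 1 library, so genes below that are not covered.

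Samples were grouped by title and treatment label. Fibroblasts were tested with limma 3.58.1 (trend) on log2(value + 1), keeping the 12401 genes that reached 5 in 2 or more libraries, all 12 libraries in 1 fit. Macrophage counts were tested with edgeR 4.0.16 (quasi-likelihood, TMM, filterByExpr, 10088 genes), all 14 libraries in 1 fit. The spread is shared by all groups of a fit, which the group of 2 libraries relies on. P-values are two-sided, adjusted over all genes, in R 4.3.3. The submitters call fibroblast replicates biological; p-values measure the spread between these samples. Tests were checked on simulated data with 1 spread for all genes and changes only in genes above a set mean count. That check does not cover genes with few reads or a wider spread, which include some of those reported.

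All 10 genes were named. For each gene the 2 most similar genes (mean normalized value of at least 20) and called members of pathway lists were named. The genes and lists were chosen with earlier results of these data known. The glial list, the marker shares and the motifs were chosen after values were seen. Some genes of the glial list are not reported here and enter no sum. Promoter sequences are RefSeq's. Alternatives were other pseudocounts, filters, normalizations, tools (DESeq2 1.42.0), a replicate block, fits of 2 groups and leaving out each library. In macrophages from co-cultures in both media, same-numbered samples deviate together (correlations of 0.215, 0.161 and 0.438), so the numbers may pair them. The main test does not use this pairing. Intervals and floors from counting were not used.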

Additional observations from a re-analysis of the deposited data

Results flagged for a closer look

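In 7 of the 30 sets of 4 libraries (10 genes in 3 groups), 1 library lay far from the other 3 by Dixon's test. Its rate of about 1 in 20 holds for normally distributed values in independent sets. Here the values were not on a log scale, the sets share libraries, and all 7 outlying values were the highest of their set. The count of 7 therefore cannot be read against that rate. In fibroblasts from co-culture in 4T1 medium these were Fos in replicate 4, at 383 normalized reads, and Fosl2 in replicate 3, at 315. In macrophages from co-culture in 4T1 medium it was Fosl1 in replicate 3, at 70.1, the library with the highest fibroblast share (20.1%). In macrophages from mono-culture in 4T1 medium they were Fosl1 in replicate 4, at 4.98 with the other 3 libraries at 0, Fosl2 in replicate 4, at 101, Junb in replicate 1, at 1015, and Jund in replicate 3, at 692.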

How the results depend on the processing

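Of 1217 changes of single genes recomputed under an alternative, 1176 kept their side of the threshold and any called direction, 25 lost a call, 16 gained one and none reversed. In fibroblasts in mono-culture, the number of genes called by 4T1 medium was 2 to 4 with a library left out (4 with all), with 2 without replicate 1 of the 4T1 medium group, and it was 3 with edgeR and with DESeq2 on the recovered reads. In co-culture the number was 1 to 4 with a library left out (1 with all), with 4 without replicate 4, and with 2 without replicate 3 of the same group or replicate 2 in DMEM, and it was 2 with DESeq2. In macrophages from co-culture in DMEM against day 0 it was 4 to 7 (7 with all).

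Outside the comparison of the macrophage co-cultures, the replicate number was not taken to pair the samples. Correlations of deviations there ran from -0.241 to 0.305, with few pairs in each test, so pairing is not settled. Among tests with at least 3 pairs, samples correlated best with their own number in 2 of 6 cases in each fibroblast test, 5 of 8 for co-culture of macrophages in 4T1 medium and 0 of 6 in each test against day 0. With it as a block the number of genes called was 4 for 4T1 medium in fibroblasts both alone and in co-culture, 0 for the other fibroblast tests, and in macrophages 4 for co-culture in 4T1 medium, 3 for 4T1 medium in co-culture, 5 for co-culture in DMEM and 7 for mono-culture in 4T1 medium against day 0. In the fibroblast co-cultures the block cannot be told apart from leaving out replicate 4.

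Fosb and Fosl1 in macrophages rest on few reads (5 and 2 over the day 0 group), so their folds are imprecise. Settings that leave 1 library in a group assume that it varies like the others. Fosb was removed by the filter in some macrophage fits and has no value there.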
